A study of Mus musculus with 6 samples.

Results

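The genes described here are p53, its classical targets and the GADD45 family: Trp53, Cdkn1a, Mdm2, Ccng1, Btg2, Gadd45a, Gadd45b and Gadd45g. Probe sets, each a group of oligonucleotides that together read 1 transcript, were chosen by gene symbol (current or older synonym) in the platform annotation. Of the 8 listed genes, 7 had a probe set, 9 probe sets in all, among 8251 genes with a name on the array. Trp53 itself was not analysed here. Livers came from 6 male C57BL/6J mice, wild type and 8 to 10 weeks old, with 1 mouse per Affymetrix U74Av2 array. In the 3 BDL mice the common bile duct was ligated and cut 1 day before sampling, which stops bile from leaving the liver. The 3 sham mice had a similar laparotomy without ligation, so surgery and anaesthesia are common to both groups. In the titles the BDL mice carry the numbers 1, 12 and 3, and those with sham surgery 1, 2 and 3.

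The p53 protein is a transcription factor that is held low by Mdm2, a ubiquitin ligase that p53 itself induces, and that accumulates after DNA damage and other stress. Among its classical targets, Cdkn1a encodes p21, an inhibitor of cyclin-dependent kinases, Ccng1 encodes cyclin G1, and Btg2 encodes an antiproliferative protein. The GADD45 proteins are small stress-induced proteins that bind PCNA and p21 and activate the kinase upstream of p38 and JNK; Gadd45a is a p53 target, whereas Gadd45b is best known as a target of NF-kappaB and TGF-beta. Several of these genes are also induced in the liver by growth stimuli, fasting or glucocorticoids, without DNA damage.

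The RefSeq promoter windows of GRCm38.p6 are shown for 5 members because 3 of them hold a p53 half-site, the short element p53 binds in pairs, and 2 do not. Each line gives the 250 bases before an annotated start site, 5′ to 3′ on the strand of the gene. Capitals mark the p53 half-site, the TATA box (TATAAA) and the cAMP response element (TGACGTCA), searched on both strands, and no marked match overlaps another.
Cdkn1a, upstream start site, chr17:29090729-29090978 (plus strand): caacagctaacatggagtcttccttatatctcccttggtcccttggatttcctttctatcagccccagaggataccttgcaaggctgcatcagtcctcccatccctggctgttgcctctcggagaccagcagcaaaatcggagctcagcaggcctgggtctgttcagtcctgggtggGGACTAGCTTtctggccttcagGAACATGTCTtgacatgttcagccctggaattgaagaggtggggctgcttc
Mdm2, chr10:117710759-117711008 (minus strand): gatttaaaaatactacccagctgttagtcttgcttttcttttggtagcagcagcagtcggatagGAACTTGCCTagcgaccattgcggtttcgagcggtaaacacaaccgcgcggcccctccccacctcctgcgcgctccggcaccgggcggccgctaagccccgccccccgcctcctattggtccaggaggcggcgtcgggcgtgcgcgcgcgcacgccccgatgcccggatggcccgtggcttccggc
Btg2, chr1:134079156-134079405 (minus strand): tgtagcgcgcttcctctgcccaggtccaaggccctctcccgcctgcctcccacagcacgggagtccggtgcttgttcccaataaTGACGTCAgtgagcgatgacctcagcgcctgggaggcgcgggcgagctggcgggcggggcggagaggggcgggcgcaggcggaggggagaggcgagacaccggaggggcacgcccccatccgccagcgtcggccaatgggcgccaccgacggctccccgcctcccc
Gadd45a, chr6:67037408-67037657 (minus strand): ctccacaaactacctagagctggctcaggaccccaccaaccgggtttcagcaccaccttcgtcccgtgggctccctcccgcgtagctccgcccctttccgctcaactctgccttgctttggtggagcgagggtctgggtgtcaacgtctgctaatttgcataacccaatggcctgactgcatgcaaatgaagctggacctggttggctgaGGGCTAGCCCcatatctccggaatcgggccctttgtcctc
Gadd45g, chr13:51846425-51846674 (plus strand): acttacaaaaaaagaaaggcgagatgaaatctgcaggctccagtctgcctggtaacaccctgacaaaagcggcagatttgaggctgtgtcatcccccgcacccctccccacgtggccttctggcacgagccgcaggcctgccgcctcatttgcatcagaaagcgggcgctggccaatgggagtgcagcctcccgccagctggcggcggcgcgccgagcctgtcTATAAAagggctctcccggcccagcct

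All 7 genes with a probe set had a window, 8 windows in all because Cdkn1a had 2. A p53 half-site was found in 4 of the 8 windows, those of Mdm2, Ccng1 and Gadd45a and the upstream start site of Cdkn1a, against 7.13% of the 32851 mouse windows. The upstream Cdkn1a window held 2 half-sites, 73 to 64 and 51 to 42 bases before the start site. The window of Btg2 held a cAMP response element (1.55% of all windows), and those of Gadd45b and Gadd45g held a TATA box (12.4% of all windows). A match is a description of letters in this window only.

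The 2% trimmed mean signal was 1501 on every array, so the arrays were already on 1 scale, and median signals lay between 431 and 627. Sham replicate 1 stood apart at low signals: 12.5% of its probe sets were at or below the floor of 152.7, against 24.5% to 31.3% on the other arrays. The floor is the 25th percentile of all values, to which lower signals were raised before log2. All 9 member probe sets were tested, and 1 value in them, Gadd45b on sham replicate 3, lay below the floor. Among hepatocyte markers, all 10 on the array were tested and Alb, albumin, gave signals of 125084 to 199675. For arrays, their number limits the precision. In whole liver, fewer cells of a type and less RNA per cell cannot be told apart.

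The comparison asked whether genes of the p53 and GADD45 stress programme differed between BDL and sham livers. None of the 9 member probe sets passed an adjusted p of 0.05 with limma, and 0% of all 9542 tested probe sets did. At an unadjusted p under 0.05 from limma the members numbered 0 of 9, against 5.78% of all tested probe sets (3.4% higher and 2.39% lower in BDL). The adjusted p of the members ranged from 0.832 to 0.986. The log2 difference, BDL minus sham, was above 0 for 8 of 9 probe sets, against 48.8% of all. Its median was 0.38, against -0.01 over all tested probe sets. By gene, with the probe set of the highest mean, 6 of 7 were above 0, against 49.2% of all tested genes. Of the positive differences, those of Cdkn1a (98067_at), Btg2 and Gadd45a turned in sign without 1 array. Groups did not overlap for 1 of the 9, Mdm2, against 10.6% of all tested probe sets (6.32% higher and 4.32% lower in BDL). For every member the 95% interval of the difference included 0.

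**Figure D1:**
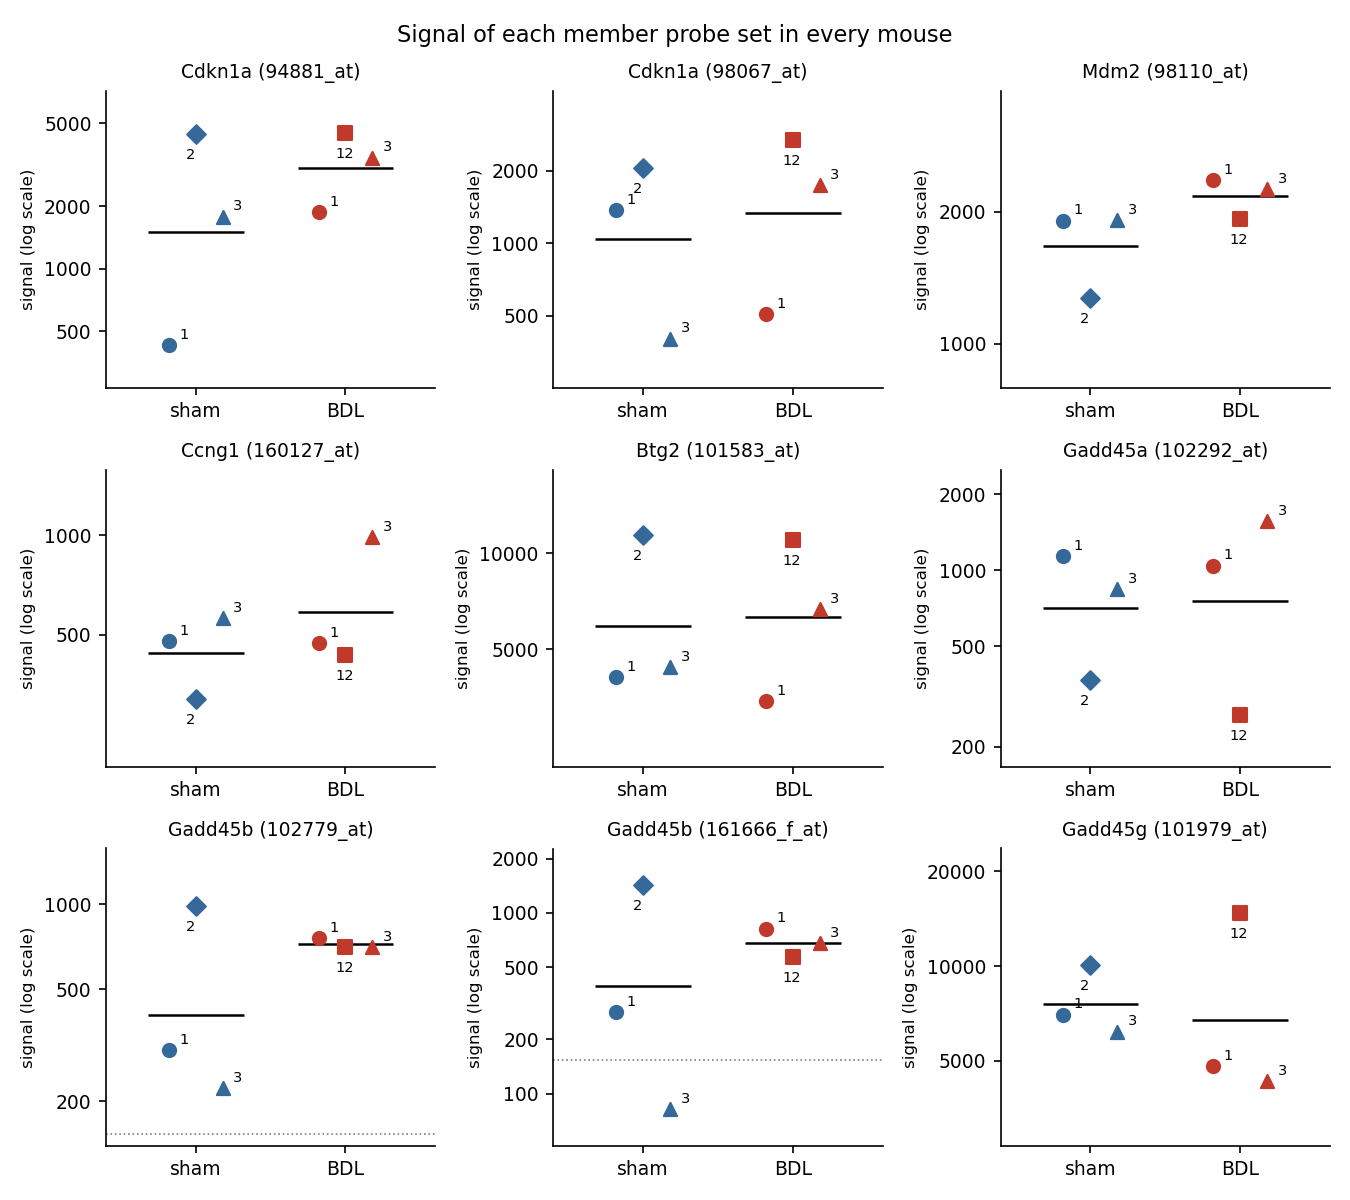
Signal (log scale) of the 9 member probe sets in each of 3 sham and 3 BDL mice; numbers are replicate numbers, bars are geometric means and the dotted line, where in range, is the floor of 152.7. Only for Mdm2 do all 3 BDL signals lie above all 3 sham signals, and for Btg2 the high values, 11026 and 11420, belong to BDL 12 and sham 2.

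Mdm2, the ubiquitin ligase that restrains p53, was the steadiest member. BDL mice 1, 12 and 3 had signals of 2364, 1932 and 2252, and sham mice 1, 2 and 3 had 1910, 1272 and 1919. Every BDL mouse was above every sham mouse, although BDL mouse 12 and sham mouse 3 were nearly level. The geometric means were 1.30-fold apart, a log2 difference of 0.38 (SE 0.30, 95% interval -0.30 to 1.06, n = 3 and 3; limma adjusted p = 0.852). The exact two-sided permutation p was 0.1, the smallest that 3 against 3 mice allows. After quantile normalization the groups overlapped, and without sham replicate 2 the difference was 0.18. The within-group SD of Mdm2, 0.26 log2 units, was at percentile 18.2 of all tested probe sets.

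Cdkn1a, which encodes the cell cycle inhibitor p21, had the largest point estimate of the 9 probe sets and one of the largest spreads. On probe set 94881_at the BDL signals were 1869, 4489 and 3416 in replicates 1, 12 and 3. The sham signals were 428.5, 4420 and 1776 in replicates 1, 2 and 3. Sham replicate 2 was as high as the highest BDL mouse, and sham replicate 1 was 10.3-fold below sham replicate 2. The log2 difference was 1.03 (SE 0.76, 95% interval -0.70 to 2.76; limma adjusted p = 0.846), a 2.04-fold higher geometric mean in BDL with overlapping groups. The interval runs from a 0.617-fold to a 6.76-fold ratio of BDL to sham. The difference was 0.13 when sham replicate 1 was left out and 1.81 when sham replicate 2 was, and array weights gave 0.18.

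The other Cdkn1a probe set, 98067_at, gave a log2 difference of 0.36 (SE 0.74, 95% interval -1.32 to 2.03; limma adjusted p = 0.947). Its signals were 507.0, 2694 and 1740 in BDL replicates 1, 12 and 3. In sham replicates 1, 2 and 3 they were 1375, 2054 and 401.5. Both Cdkn1a probe sets were highest in BDL replicate 12 and sham replicate 2, but they disagreed on sham replicate 1, which was the lowest array on the first but above BDL replicate 1 and sham replicate 3 on the second. The difference on 98067_at turned to -0.33 without sham replicate 3, -0.15 without BDL replicate 12 and -0.13 with array weights.

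Ccng1, cyclin G1, is among the genes most regularly induced by p53. BDL mice 1, 12 and 3 had signals of 471.8, 433.8 and 985.2, and sham mice 1, 2 and 3 had 479.1, 320.1 and 560.1. One BDL mouse, replicate 3, lay above all sham mice, and the other two were within the sham range. The log2 difference was 0.41 (SE 0.40, 95% interval -0.50 to 1.32; limma adjusted p = 0.876), and it was 0.04 without BDL replicate 3.

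Btg2, an antiproliferative gene that is also an early response gene, split each group. Signals were 3436, 11026 and 6670 in BDL replicates 1, 12 and 3. They were 4102, 11420 and 4399 in sham replicates 1, 2 and 3. BDL replicate 12 and sham replicate 2 were the highest arrays, and the lowest array was a BDL mouse. The log2 difference was 0.10 (SE 0.53, 95% interval -1.11 to 1.31; limma adjusted p = 0.983; exact two-sided permutation p = 1). Leaving out BDL replicate 12 gave -0.30, and leaving out sham replicate 2 gave 0.57.

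Gadd45a, the p53-responsive member of its family, ran the other way in the same mice. The signals of BDL mice 1, 12 and 3 were 1044, 266.2 and 1568, and those of sham mice 1, 2 and 3 were 1141, 368.7 and 840.8. The lowest arrays were BDL replicate 12 and sham replicate 2, and BDL replicate 3 was 5.89-fold above BDL replicate 12. Between the groups the log2 difference was 0.10 (SE 0.67, 95% interval -1.43 to 1.63; limma adjusted p = 0.986). Leaving out 1 mouse at a time gave -0.42 without BDL replicate 3 to 0.86 without BDL replicate 12, and array weights gave 0.94.

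Gadd45b had 2 probe sets with like values, and a tight BDL group beside a wide sham group. On 102779_at the BDL mice 1, 12 and 3 had signals of 756.0, 702.4 and 702.4. The sham mice 1, 2 and 3 had 303.1, 985.0 and 222.4. The SD of log2 signals was 0.06 in BDL and 1.13 in sham. All 3 BDL mice lay above sham replicates 1 and 3 and below sham replicate 2. The log2 difference was 0.83 (SE 0.52; limma adjusted p = 0.832, the lowest of the members). The ratio of geometric means was 1.78-fold, with a 95% interval of 0.787 to 4.01.

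The second Gadd45b probe set, 161666_f_at, has a suffix that marks probes shared with related sequences. Its signals were 819.3, 567.4 and 678.8 in BDL replicates 1, 12 and 3. In sham replicates 1, 2 and 3 they were 281.5, 1421 and 82.4, so sham replicate 2 was again above every BDL mouse. Its log2 difference was 0.79 (SE 0.71, 95% interval -0.83 to 2.41; limma adjusted p = 0.873). Without sham replicate 2 the differences of the 2 probe sets were 1.47 and 1.72 and the groups were apart, with a limma adjusted p of 0.618 for each. Without sham replicate 3 they were 0.40 and 0.11, and with array weights 0.25 and 0.01. A floor at the 40th percentile gave 0.35 on 161666_f_at.

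Gadd45g, the remaining family member, had signals of 4801, 14774 and 4304 in BDL replicates 1, 12 and 3. In sham replicates 1, 2 and 3 they were 7019, 10110 and 6199. The BDL group held the highest array and both of the lowest, so 2 of 3 BDL mice were below all sham mice. The log2 difference was -0.18 (SE 0.49, 95% interval -1.29 to 0.94; limma adjusted p = 0.958), and leaving out BDL replicate 12 or BDL replicate 3 gave -0.74 or 0.15. Side by side, the point estimates were 0.10, 0.83 and -0.18 for Gadd45a, Gadd45b (102779_at) and Gadd45g; those of Gadd45a and Gadd45g turned in sign without 1 array, and differences between the 3 genes were not tested.

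**Figure D2:**
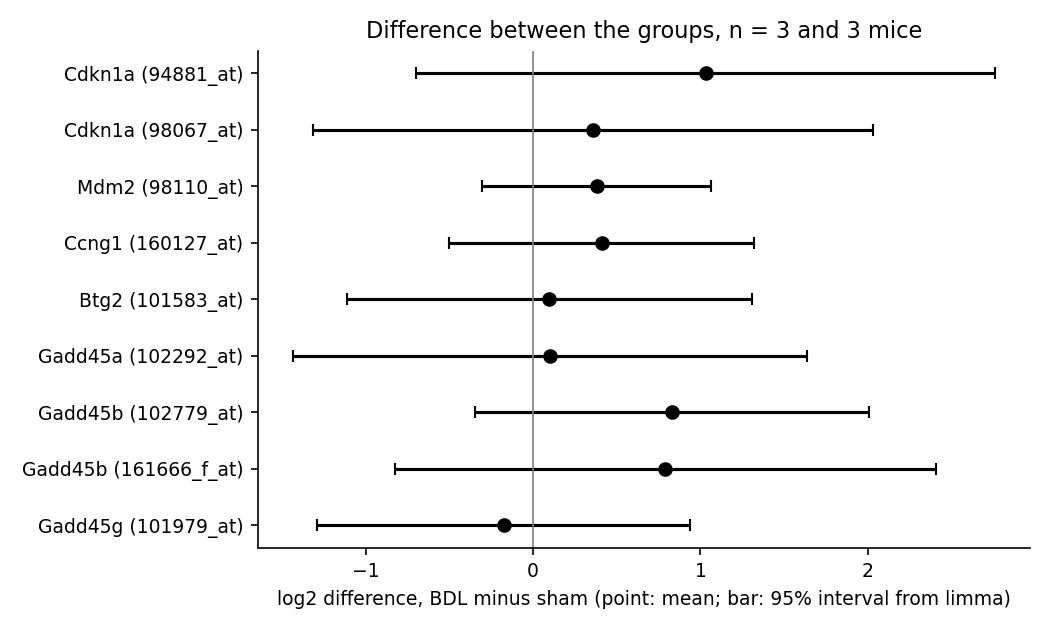
Log2 difference, BDL minus sham, of the 9 member probe sets; points are means over 3 and 3 mice and bars are 95% intervals from limma. All 9 intervals include 0, and the point estimates run from -0.18 for Gadd45g to 1.03 for Cdkn1a (94881_at).

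Mice of 1 group differed widely in several of these genes. For 5 of the 7 genes, BDL replicate 12 and sham replicate 2 stood at 1 end of the 6 arrays. This pair was picked out after the values were seen, and the following is a description. They were the 2 highest arrays for 4 of 9 member probe sets (both of Cdkn1a, Btg2 and Gadd45g), against 8.61% of all tested probe sets. They were the 2 lowest for 2 of 9 (Gadd45a and Ccng1), against 9% of all. The within-group SD of log2 signals was at percentiles 99.0 and 98.7 of all tested probe sets for Cdkn1a, 98.2 for Gadd45b (161666_f_at), 97.6 for Gadd45a and 90.0 for Btg2. It was at percentile 88.4 for Gadd45b (102779_at), 84.7 for Gadd45g, 65.4 for Ccng1 and 18.2 for Mdm2.

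**Figure D3:**
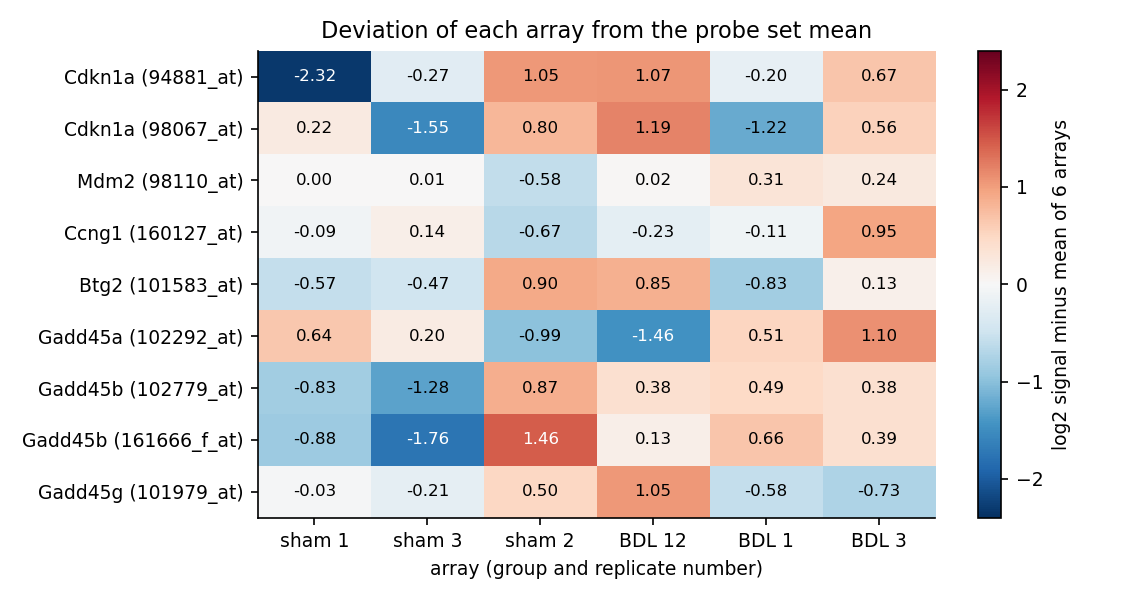
Deviation of each array from the mean of the 6 arrays (log2 units) for the 9 member probe sets, with sham arrays on the left and BDL arrays on the right. Sham 2 and BDL 12 are near each other in some rows, with 0.90 and 0.85 for Btg2, 1.05 and 1.07 for Cdkn1a (94881_at), and -0.99 and -1.46 for Gadd45a. They differ in others, with 1.46 and 0.13 for Gadd45b (161666_f_at), 0.87 and 0.38 for Gadd45b (102779_at), and -0.58 and 0.02 for Mdm2.

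Values of other kinds were set beside that pattern. In none of the 7 marker lists of liver cell types did BDL replicate 12 and sham replicate 2 hold the 2 highest or the 2 lowest list means. RNA integrity, read as the signal ratio of 3′ over 5′ probe sets of beta-actin, was 1.41 on BDL replicate 12 and 1.54 on sham replicate 2. This ratio lay between 1.21 and 1.41 in BDL and between 1.52 and 1.54 in sham mice, so the groups were apart. For Gapdh it was 0.736 and 0.692, within 0.652 to 0.813 over all arrays. For pyruvate carboxylase it was 1.29, 2.05 and 2.76 in BDL mice 1, 12 and 3 and 2.26, 2.67 and 4.57 in sham mice 1, 2 and 3, and the groups overlapped. The part of RNA integrity in the members' values was not tested. Of 9 tested relatives of the targets, 3 had the same 2 highest arrays (33.3%, against 9% of all tested genes). They were Ccng2, a cyclin G, with 2058 and 1756 against 875.8 to 1754 elsewhere, Ppp1r15a, the stress gene GADD34, with 1023 and 1200 against 794.3 to 988.2, and Ddit4, a stress-induced inhibitor of mTOR signalling, with 3906 and 2902 against 311.8 to 1883. Among other p53 target genes, Sesn1, Igfbp3, Dusp1 and Ercc5 had them (4 of 22, 18.2%, against 9% of all tested genes). The share was 18.2% of 11 stress kinases and 12.5% of 8 binding partners of p21 and GADD45. It was 7.14% of 14 immediate early genes, 5.88% of 17 other regulators and 0% of 12 p53 regulators and relatives. In the last list, Mdm4 and Crebbp had the pair as the 2 lowest arrays (16.7%, against 9.71% of all tested genes). The share with the pair lowest was 4.55% of other p53 target genes. It was 0% of the relatives, stress kinases, binding partners, other regulators and immediate early genes.

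Endothelial markers were set beside Gadd45b, a comparison that was not planned before the values were seen. Summed over the 9 tested genes, their signal ranged from 7479 to 10147 in BDL mice. In sham mice it ranged from 4786 to 8842, with sham replicate 2 at 8842. Of the 9 genes, 8 had a positive difference (88.9%, against 49.2% of all tested genes). Groups did not overlap for 1 of them (11.1%, against 10.6% of all tested genes). All 9 markers on the array were tested, so none was at the floor throughout. Without Eng, which had the largest signals of the list, the other 8 genes summed to 4927, 3688 and 3224 in BDL mice. In sham mice they summed to 1933, 4192 and 2158. Cdh5, VE-cadherin, also among the genes closest to Gadd45b (102779_at), had signals of 831.3, 884.6 and 720.9 in BDL and 227.7, 887.6 and 215.8 in sham mice. Closer still was Hba-a1, a globin gene of red cells that is not in this list. Its signals were 15626, 15855 and 17762 in BDL and 5902, 18423 and 6473 in sham mice. For Fcgr2b, sham replicate 2 was at 289.5, below every BDL mouse (455.8 to 604.4). Pecam1 had the negative difference of the list, -0.25 (SE 0.67). The macrophage and Kupffer cell markers had 8 positive differences among 10 tested genes (80%), and 10% of these markers had groups that did not overlap. They summed to between 14485 and 38527 in BDL mice and between 6959 and 13499 after sham surgery. Cd14, the endotoxin coreceptor, had the largest part of the 2 highest sums, with signals of 1873, 29692 and 15816 in BDL mice 1, 12 and 3 and 717, 4568 and 1176 in sham mice 1, 2 and 3. Without Cd14, chosen after its values were seen, the other 9 genes summed to 12612, 8836 and 13762 in BDL and 9686, 8931 and 5783 in sham mice, with overlapping groups. Marco, another marker of that list, was on the array but too dim to be tested. The part of either list in the values of Gadd45b was not tested.

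Genes whose signals followed a member most closely over the 6 arrays were found by the root mean square difference of centred log2 signals, among 6896 other genes. The closest to Btg2 was Kdm5b, a histone demethylase, at 0.11 log2 units, followed by Uck2 at 0.18 and Cited2, a transcriptional coregulator, at 0.20. Kdm5b was below the floor on BDL replicate 1 and, with a signal of 130.7, on sham replicate 1, so its value on those arrays is that of the floor. Nearest to Cdkn1a (94881_at) were Siah1a, a ubiquitin ligase, at 0.35, Ostf1 at 0.39 and Ddit4 at 0.40.
For Gadd45a the closest were AW112010 at 0.24, Dnajb2 at 0.29 and Ctnna2 at 0.31, the last below the floor on BDL replicate 12 (129.7). AW112010 had signals of 1568 on BDL replicate 12 and 1802 on sham replicate 2, against 5517 to 8453 on the other 4 arrays. For Gadd45b (102779_at) they were Hba-a1, alpha-globin of red cells, at 0.22, Cdh5 at 0.23 and Tpm4, a tropomyosin, at 0.24. Gadd45g was followed by Krt33b at 0.21, Ryk at 0.22 and Hsp90b1, an endoplasmic reticulum chaperone, at 0.23, and Ccng1 by Cyb5r4 at 0.16, Sqor at 0.17 and Rrbp1 at 0.18. Mdm2 spanned less than 1 log2 unit and was not matched.

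The wider p53 pathway gave no uniform direction. Of 12 tested regulators and relatives of p53, 7 had a positive difference. At an unadjusted p under 0.05 from limma 1 was higher and 0 were lower, against 236 and 157 of all 6897 tested genes. The 1 was Trp53bp1, a DNA damage adaptor, with signals of 677.4, 166.5 and 393.2 in BDL mice 1, 12 and 3, while the 3 sham mice were below the floor. It was at least 2.32-fold higher in BDL (limma adjusted p = 0.832). Trp63, a p53 relative, differed by -0.87 (SE 0.46), Cdkn2a, which encodes the CDK inhibitor p16 and the Mdm2 inhibitor ARF, by -0.39 (SE 0.33), and Chek2, a checkpoint kinase, by 0.56 (SE 0.51). Groups overlapped for these genes, and Trp63 was below the floor on BDL replicate 3 (150.9).

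Of 22 other p53 target genes tested, 10 had a positive difference, 45.5% against 49.2% of all tested genes, and the median was -0.08. At an unadjusted p under 0.05 from limma, 0 were higher and 1 was lower, against 236 and 157 of all 6897 tested genes. The lower gene was Gtse1, a p53-binding protein of dividing cells, with signals of 221.5, 221.9 and 141.9 in BDL and 485.8, 260.8 and 602.8 in sham mice. The last BDL signal is below the floor. Its log2 difference was -1.12 (SE 0.38, limma adjusted p = 0.832). Plk2, a p53-induced kinase, differed by 0.63 (SE 0.33), Casp1 by -0.64 (SE 0.41) and Mgmt, a DNA repair enzyme, by -0.52 (SE 0.34), with overlapping groups. The 9 tested relatives of the targets and other CDK inhibitors had 6 positive differences, a median of 0.17 and 0 genes at an unadjusted p under 0.05. Btg1, the close relative of Btg2, differed by 0.63 (SE 0.33), and Ddit3, the stress factor CHOP, by 0.82 (SE 0.60). Cdkn2c and Cdkn1c, both CDK inhibitors, differed by -0.54 (SE 0.52) and -0.47 (SE 0.57). Ddit3 and Cdkn1c were each below the floor on 3 of the 6 arrays.

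Proteins that p21 and GADD45 bind are cyclins, their kinases and PCNA. Of 8 tested, 5 had a positive difference (62.5%, against 49.2% of all tested genes). The median was 0.37, but it was 0.07 with a filter at the median and 0.07 without BDL replicate 12. At an unadjusted p under 0.05 from limma 1 was higher and 0 were lower, against 236 and 157 of all 6897 tested genes. Groups did not overlap for 2 of the 8, Ccnd1 and Pcna (25%, against 10.6% of all tested genes). Ccnd1, the G1 cyclin D1, had signals of 2619, 921.9 and 3054 in BDL mice 1, 12 and 3 and 734.0, 538.5 and 328.6 in sham mice 1, 2 and 3. Its log2 difference was 1.94 (SE 0.51; limma adjusted p = 0.687), whereas another Ccnd1 probe set gave 0.16 (SE 0.48) with overlapping groups. Pcna, the replication clamp, had signals of 1696, 2243 and 2581 in BDL and 1317, 1144 and 1565 in sham mice, a log2 difference of 0.69 (SE 0.30; limma adjusted p = 0.832). Ccne1, cyclin E1, and Ccna2, cyclin A2, differed by 0.67 (SE 0.39) and 0.81 (SE 0.60). The stress kinases downstream of GADD45 had 4 of 11 positive differences (36.4%) and a median of -0.08. At an unadjusted p under 0.05 from limma 0 of them were higher and 1 was lower, against the same 236 and 157. Map2k6, a p38 kinase activator, differed by -1.04 (SE 0.43; limma adjusted p = 0.832), with BDL signals of 77.1, 101.0 and 280.2 and sham signals of 477.6, 533.7 and 221.3. The first 2 BDL signals are below the floor. Mapk12, a p38 kinase, differed by -0.72 (SE 0.37), Map3k7, the kinase TAK1, by 0.52 (SE 0.42) and Map2k3, another p38 activator, by -0.29 (SE 0.28).

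The immediate early genes respond to growth factors and injury within minutes to hours. They had 11 of 14 positive differences (78.6%, against 49.2% of all tested genes) and a median of 0.38. At an unadjusted p under 0.05 from limma 4 of the 14 were higher and 0 lower. Groups did not overlap for 28.6%, against 10.6% of all tested genes. Of the genes without overlap, 3 were higher in BDL and 1, Zfp36, was lower (log2 difference -0.53, SE 0.28). Other regulators of p21 and GADD45 transcription had 8 of 17 positive, a median of -0.14, and 2 higher and 1 lower gene at that p. Over all 6897 tested genes the median was -0.01, with 236 higher and 157 lower. Myc, Klf6 and Egr1 stood in both lists, Egr1 with a log2 difference of 0.12 (SE 0.38) and overlapping groups.

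Myc, a transcription factor known to repress Cdkn1a, had signals of 395.4, 459.1 and 423.7 in BDL mice 1, 12 and 3. The 3 sham mice were below the floor, so it was at least 2.79-fold higher in BDL, with a limma adjusted p of 0.667. Klf6, a zinc finger factor known to activate Cdkn1a, had signals of 1484, 1653 and 2239 in BDL mice 1, 12 and 3 and 360.5, 800.0 and 447.3 in sham mice 1, 2 and 3. Every BDL mouse was above every sham mouse, a 3.49-fold higher geometric mean and a log2 difference of 1.80 (SE 0.37; limma adjusted p = 0.667). For the early response genes Ier3 and Ier2 the log2 differences were 2.27 (SE 0.87) and 0.92 (SE 0.39), and each had groups that overlapped. Cebpa, a hepatocyte transcription factor, had signals of 13216, 9638 and 8702 in BDL and 21134, 16219 and 27176 in sham mice, a log2 difference of -1.02 (SE 0.32; limma adjusted p = 0.832). Brca1, a DNA repair factor, differed by -0.73 (SE 0.44) with overlapping groups, and was below the floor on BDL replicate 12 (134.3).

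**Figure D4:**
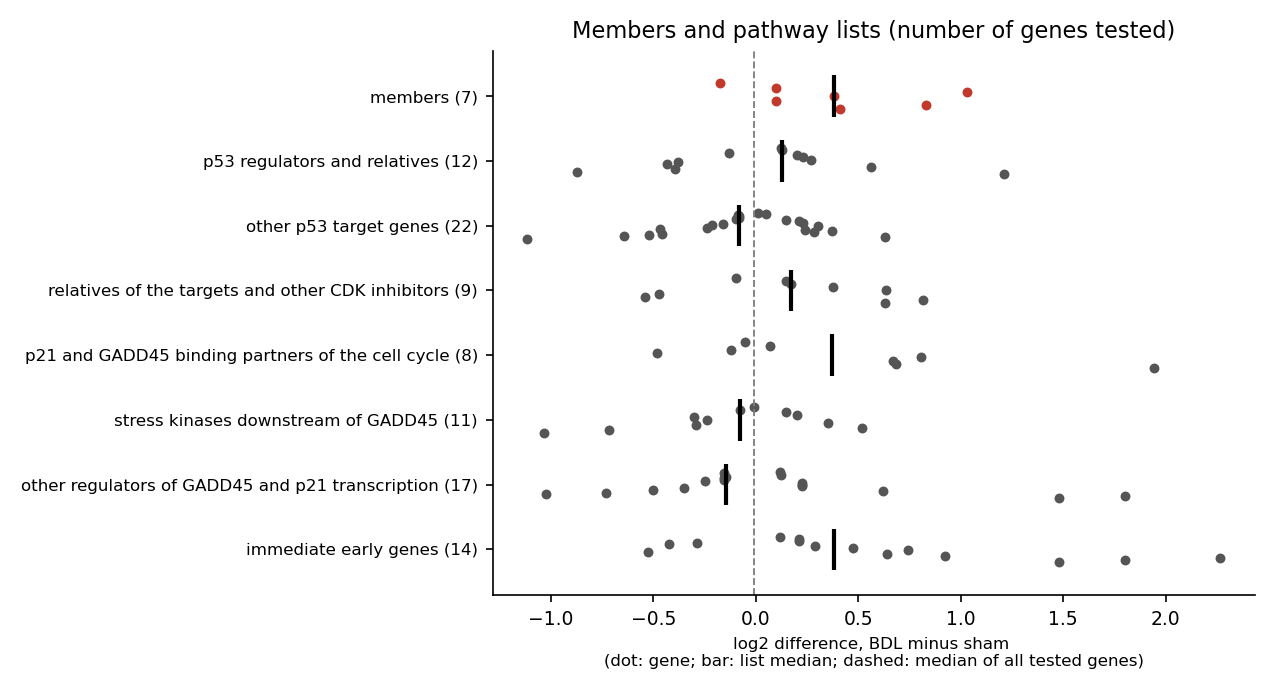
Log2 difference, BDL minus sham, of each tested gene (dots) in the members and 7 pathway lists, with list medians as bars and the median of all tested genes as a dashed line. Medians run from -0.14 to 0.38, and single genes in every list lie on both sides of 0.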

How the data were processed

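Liver RNA of 3 BDL and 3 sham mice was measured on 6 arrays, 1 mouse per array; groups and replicate numbers come from the titles. According to the series' design text, the authors used GeneChip analysis software (version 3.1) and MicroArray Suite (version 4.0). The deposited values are linear signal intensities, 1 for each probe set on each array; their scaling target and background step are not stated in the labels. No detection calls were used.

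Of 12488 probe sets, 66 controls were left out. Signals below 152.7, the 25th percentile of all values, were raised to it and log2 was taken, which understates differences of low signals. The 9542 probe sets with at least 3 of 6 arrays above the floor were tested with limma 3.58.1 in R 4.3.3 (4 residual and 4.67 prior degrees of freedom, Benjamini-Hochberg over all), and the fit was tested on simulated data. SE is limma's moderated standard error. A gene in a list is its probe set with the highest mean. Names come from the platform annotation, updated to GRCm38.p6; 396 probe sets with several symbols and 1193 with none were not named.

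Named were all members and up to 4 genes of each pathway list with the smallest p. Also named were the 3 genes most like each member that spanned at least 1 log2 unit. Genes named for BDL 12 and sham 2 were chosen after their values were seen, as were Zfp36, Egr1, Eng, Fcgr2b and Pecam1. Members and lists were chosen with earlier results of these data known.

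The alternatives were quantile normalization, floors at the 10th and 40th percentiles, a constant added in place of the floor, testing all probe sets, a filter at the median, a variance trend, array weights, the replicate block and leaving out each array. Slides and scan dates were not used here.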

Additional observations from a re-analysis of the deposited data

How the results depend on the processing

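The 9 member probe sets gave 0 past an adjusted p of 0.05 from limma under all 15 alternatives. Over all probe sets the count was 0 except without the filter, where 3 passed, none of them a member. Without 1 array at a time it stayed 0. Members at an unadjusted p under 0.05 numbered 0 to 3 without 1 array, with 3 without sham replicate 2 (Cdkn1a 94881_at and both Gadd45b), against 6.18% of all probe sets. Members with groups apart numbered 0 after quantile normalization (12.3% of all) and 1 to 4 without 1 array (16.4% to 30.1% of all), the 4 without sham replicate 2 (21.1% of all).

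The titles give both groups the numbers 1 and 3. With the replicate number as a replicate block, 3 members had an unadjusted p under 0.05 from limma, against 6.82% of all. They were Cdkn1a 94881_at and both Gadd45b, with differences of 1.53, 1.49 and 1.85, and 0 passed the adjusted threshold. The other Cdkn1a probe set gave 0.34. In this fit BDL replicate 12 and sham replicate 2 stand alone in their blocks, so the differences come only from numbers 1 and 3. Sham replicate 2, above every BDL mouse on both Gadd45b probe sets, thus has no part in them. The fit rests on 1 residual degree of freedom. Deviations from group means correlated at 0.209 for number 1 and 0.246 for number 3 across probe sets, which are not independent replicates; BDL replicate 12 and sham replicate 2 share no number in the titles and correlated at 0.289. The other 6 pairs of a BDL and a sham array gave -0.211 to -0.04. Deviations from a group mean sum to 0 over the group, so a positive correlation in 1 pair draws the others of that array down. The negative values are therefore not independent of the positive ones. Every array of the shared numbers correlated best with its own number. Whether 12 stands for 2 is not given in the sources used here, and no fit pairing those arrays was made.

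Directions held under all alternatives for Mdm2, Ccng1, Gadd45b and Cdkn1a 94881_at. Array weights turned Cdkn1a 98067_at to -0.13 and Btg2 to -0.45. Without 1 array, Cdkn1a 98067_at ranged from -0.33 to 1.05, Btg2 from -0.30 to 0.57, Gadd45a from -0.42 to 0.86 and Gadd45g from -0.74 to 0.15. The cause was not tested. Signals near the floor limit Gadd45b (161666_f_at) on sham replicate 3.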
